A study of Homo sapiens with 4 samples.

Results

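The 35 immediate early and AP-1 genes described here were taken by gene symbol from a deposited table of 60595 genes, and each of the 35 symbols matched 1 row. They form the classes FOS, JUN, EGR, NR4A, MAF and RNA decay (ZFP36 and its relatives), with the IER and DUSP genes, 4 other transcription factors, 4 kinases and signalling inhibitors, and 3 effectors. RNA sequencing measured them in A375, an established line of human melanoma cells with the genotype WT on its label, grown in DMEM with serum, as total RNA depleted of ribosomal RNA. The protocol names a directional kit and also a second library kit, without saying which made these libraries. Paroxetine Hydrochloride, a serotonin reuptake inhibitor, was given to the cells of 2 libraries, and DMSO, the solvent control, to those of the other 2. Neither the dose nor the duration of treatment is stated in the labels. The study compared both groups to find transcripts that depend on paroxetine.

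Immediate early genes are transcribed within minutes of a stimulus from factors already present in the cell, and most of their transcripts decay fast. FOS and JUN proteins pair through basic leucine zippers into AP-1, which binds DNA. SRF, with cofactors that MAP kinases phosphorylate, switches on FOS and EGR genes, and ZFP36 proteins bind AU-rich elements in the 3' ends of such transcripts and promote their decay. In melanoma with active BRAF signalling FOSL1 is known as a member of AP-1 kept high by the MAP kinase pathway.

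Expression was given as FPKM, fragments scaled for transcript length and library size, so that levels can be compared between genes. Summed over all genes this came to 606197 and 640029 FPKM with paroxetine and to 655607 and 655004 FPKM with DMSO. Read totals were not part of it. Low genes placed the depth of the paroxetine libraries at about 0.874 and 0.970 of DMSO replicate 1, and that of DMSO replicate 2 at about 0.930. These are rough estimates, each from the most frequent ratio, which only 20 or 21 of 891 to 962 low genes held. Of the melanoma markers, SOX10, VIM and CSPG4 were at 59.0 FPKM or more in each library, whereas the pigment gene TYR was listed at 0 and PMEL, MLANA and DCT stayed under 1 FPKM. Summed markers of immune cells reached at most 0.545 FPKM, of endothelium at most 0.348 FPKM and of fibroblasts at most 2.21 FPKM. Keratinocyte markers, mostly KRT10, summed to 34.5 and 39.7 FPKM with paroxetine and 32.5 and 27.4 FPKM with DMSO. Nothing in the labels ties the libraries of a group to separate cultures, so the p-values reflect the spread among these 4 samples alone, and that spread may be technical. With 2 libraries a group an exact permutation test cannot reach a p under 0.05.

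Most of these genes were higher with paroxetine, the JUN, NR4A and MAF genes without exception, while the FOS and RNA decay classes held both a rise and a fall. Of the 35 genes, 33 reached 1 FPKM in at least 2 libraries and were tested with limma on log2(FPKM + 1), and a gene was called at an adjusted p under 0.05 over the 15511 genes tested. Of the 33, 19 were called higher and 4 lower, which is 57.6% and 12.1%, where 18.1% of all tested genes were called higher and 20.5% lower. NR4A3 and ARC passed the filter only through the paroxetine libraries, where they were high, and without them 17 of 31 (54.8%) were called higher. The median log2 change was 0.53 among the 33 tested genes of the group, NR4A3 and ARC included, and -0.0047 over all tested genes. Both paroxetine libraries exceeded both DMSO libraries in 23 of the 35 genes (65.7%) and were under both in 8 (22.9%). Among all tested genes these shares were 35.3% and 36.3%. The 23 include EGR2 and the 8 include EDN1, which were below the filter and not tested. Changes of at least 2-fold on the log2(FPKM + 1) scale were called for 9 genes upwards and 1 downwards, against 3.69% and 4.41% of tested genes. NR4A3 is among the 9. With no filter, so that all 35 entered the test, 17 were called higher and 5 lower, against 7.34% and 8.77% of the 27287 genes in that test. In bulk RNA a change in the share of cells that carry a transcript and a change in the amount per cell cannot be told apart.

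**Figure D1:**
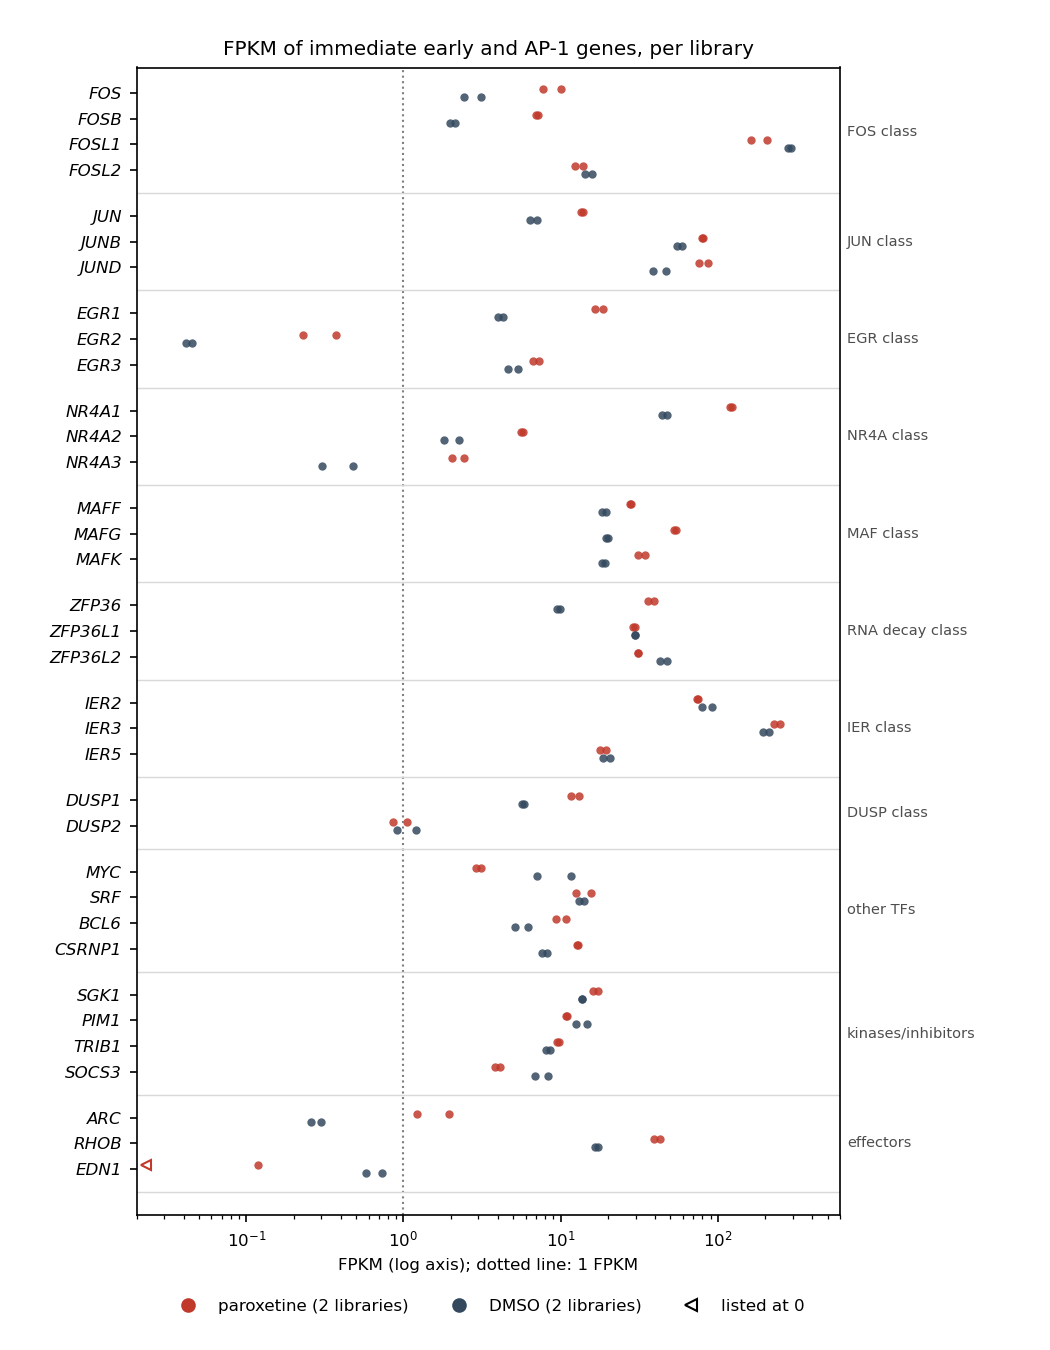
FPKM of each gene on a log axis, with a point per library, paroxetine above DMSO in each row and classes named at the right. FOSL1 and IER3 stand at the right end, FOSL1 with paroxetine at 164 and 205 FPKM and with DMSO at 293 and 282 FPKM, and EGR2 and EDN1 lie under 1 FPKM in each library.

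The FOS class split between a rare pair that rose and an abundant gene that fell. FOS, the founding AP-1 subunit (ENSG00000170345, GRCh38 chromosome 14, 75278774 to 75282230), had 7.71 and 10.1 FPKM in the paroxetine libraries, against 3.12 and 2.44 FPKM in the DMSO libraries. FOSB, a close relative that also carries an activation domain, had 6.95 and 7.13 FPKM with paroxetine and 2.12 and 1.98 FPKM with DMSO. Both rose with no overlap between the groups. The log2 change was 1.39 ± 0.19 for FOS (SE, adjusted p = 0.00411) and 1.4 ± 0.14 for FOSB (SE, adjusted p = 0.00177). FOSL1, which encodes FRA-1, a subunit without that activation domain (ENSG00000175592, chromosome 11, 65892049 to 65900573), had 164 and 205 FPKM with paroxetine and 293 and 282 FPKM with DMSO. It fell by 0.65 ± 0.11 on the log2 scale (SE, adjusted p = 0.00889), and the paroxetine libraries differed more among themselves (184 ± 28.95 FPKM) than the DMSO libraries (287 ± 7.62 FPKM; SD, n = 2 each). FOSL2, which encodes FRA-2, had 13.8 and 12.3 FPKM with paroxetine and 14.3 and 15.9 FPKM with DMSO and was not called (adjusted p = 0.205).

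FOSL1 still made up most of the class. It held 85.2% and 87.4% of the FPKM summed over the class in the paroxetine libraries and 93.7% and 93.3% in the DMSO libraries. FOSL1 stood at 21.2 and 20.2 times the level of FOS with paroxetine, against 93.8 and 115 times with DMSO. The sum of the class was 192 and 234 FPKM with paroxetine and 312 and 302 FPKM with DMSO.

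All members of the JUN class rose. JUN, the subunit that JNK phosphorylates (ENSG00000177606, chromosome 1, 58780788 to 58784327), had 13.9 and 13.5 FPKM with paroxetine and 7.03 and 6.42 FPKM with DMSO, a log2 change of 0.93 ± 0.11 (SE, adjusted p = 0.00246). JUND, which in many cells is present without stimulation (ENSG00000130522, chromosome 19, 18279760 to 18281622), had 87.2 and 75.8 FPKM with paroxetine and 46.6 and 38.7 FPKM with DMSO, a log2 change of 0.92 ± 0.11 (SE, adjusted p = 0.00326). JUNB, a weaker activator that can oppose JUN, changed less: it had 81.0 and 79.5 FPKM with paroxetine and 59.1 and 54.9 FPKM with DMSO, a log2 change of 0.49 ± 0.06 (SE, adjusted p = 0.00350). The groups did not overlap for any of the 3 genes. JUNB held 44.5% and 47.1% of the class with paroxetine and 52.5% and 54.9% with DMSO, and JUND 47.9% and 44.9% with paroxetine and 41.3% and 38.7% with DMSO. JUN was the smallest part, at 7.64% and 8.01% with paroxetine and 6.24% and 6.43% with DMSO. The sum of the class, 182 and 169 FPKM with paroxetine and 113 and 99.99 FPKM with DMSO, was below that of the FOS class in each library. Exons of HOOK2 on the opposite strand cover 14.2% of the exon bases of JUNB. HOOK2 had 15.5 and 18.3 FPKM with paroxetine and 16.7 and 7.35 FPKM with DMSO, and its part in the value of JUNB was not tested.

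**Figure D2:**
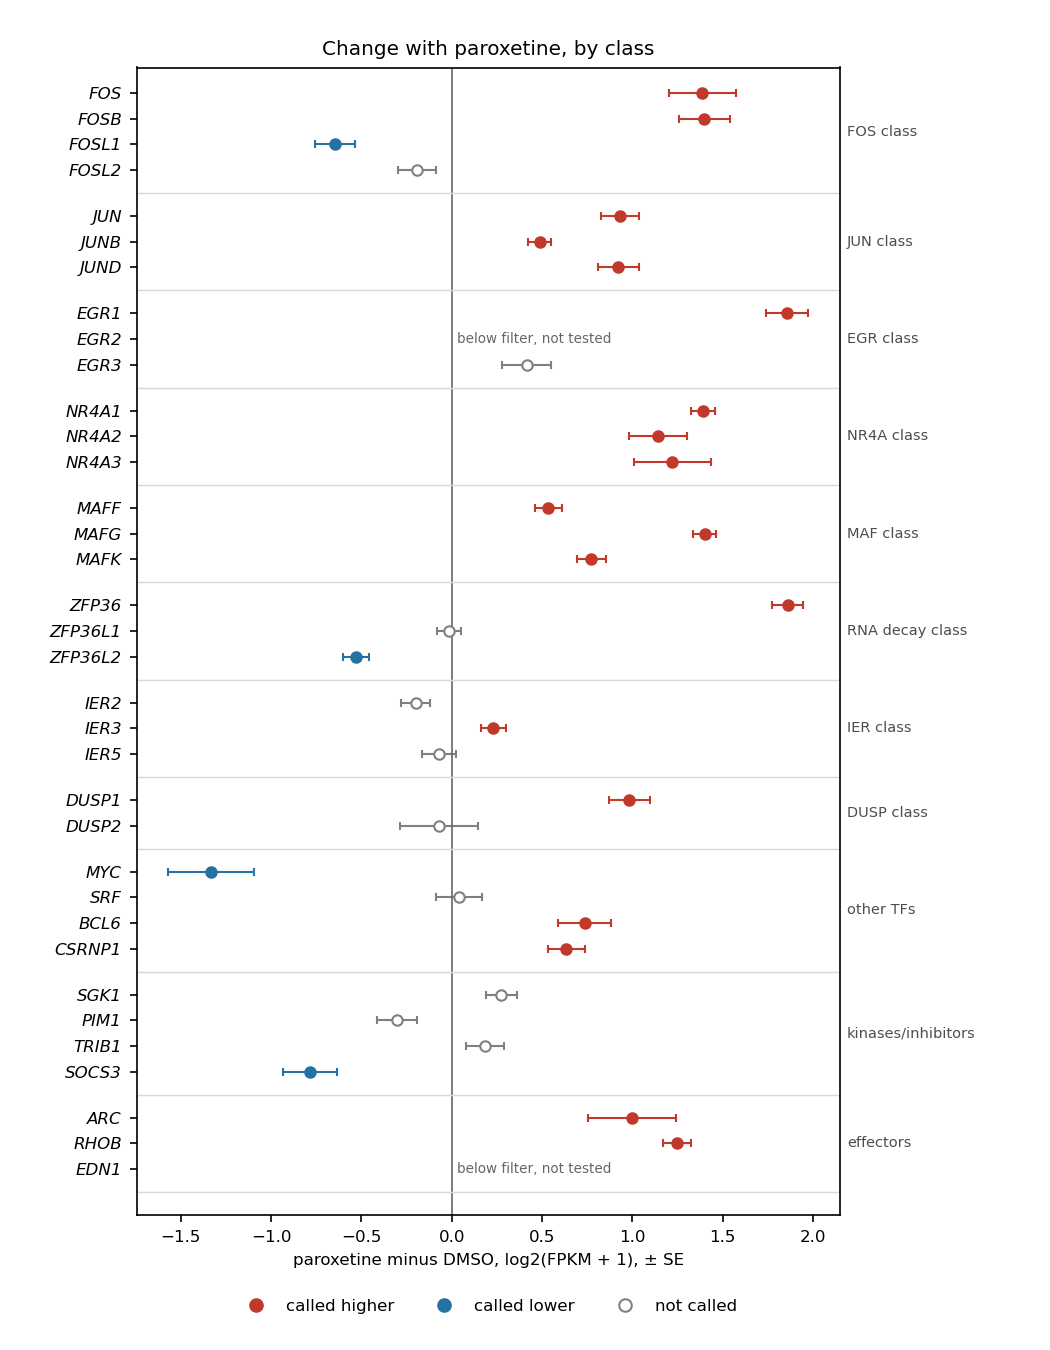
Difference of log2(FPKM + 1), paroxetine minus DMSO, with its SE from limma, filled where called at an adjusted p under 0.05. EGR1 and ZFP36 have the largest rises, 1.86 each, and MYC the largest fall, -1.33; EGR2 and EDN1 were below the filter.

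In the EGR class, zinc finger factors that act downstream of growth factor signals, EGR1 was the gene called higher. EGR1 (ENSG00000120738, chromosome 5, 138465490 to 138469315) had 16.5 and 18.7 FPKM with paroxetine, against 4.28 and 4.00 FPKM with DMSO. That is 4.26-fold on the FPKM scale and a log2 change of 1.86 ± 0.12 (SE, adjusted p = 0.000563). EGR3 had 7.34 and 6.70 FPKM with paroxetine and 5.39 and 4.65 FPKM with DMSO; the groups did not overlap, and it was not called (adjusted p = 0.0641; 0.0495, and called, with a minimum of 5 FPKM). EGR2 was below the filter, with 0.231 and 0.374 FPKM with paroxetine and 0.0414 and 0.0454 FPKM with DMSO. The ratio of its means was the highest of the class at 6.97-fold on the FPKM scale, from levels under 1 FPKM, and in a fit without a filter it was not called (adjusted p = 0.112). EGR1 made up 68.6% and 72.5% of the class with paroxetine and 44.1% and 46.0% with DMSO, where EGR3 was the most abundant of the 3.

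The promoter of EGR1 is known for binding sites of SRF, called CArG boxes, and is printed here because EGR1 rose, with EGR2 beside it for comparison. Both windows are RefSeq sequence on GRCh38.p14, lie before a RefSeq transcript start and have the boxes in capitals. The window of EGR2 lies inside the span that GENCODE gives this gene (chromosome 10, 62811996 to 62919900), but in none of its exons.
EGR1 (chr5:138465370-138465429, + strand): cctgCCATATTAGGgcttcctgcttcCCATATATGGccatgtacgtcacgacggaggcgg
EGR2 (chr10:62816404-62816463, - strand): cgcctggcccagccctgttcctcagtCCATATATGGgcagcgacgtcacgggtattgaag
A CArG box was found on either strand within 250 bases before to 50 bases after the start in 3 of the 26 genes with a promoter in the table, EGR1, EGR2 and SRF, and in 1.29% of all 35116 promoters. Here and for the motifs below, the members were counted per gene, with a hit in any of its promoters, and the background per promoter. These shares are therefore not like for like. SRF itself, whose promoter holds a pair of boxes, had 12.5 and 15.5 FPKM with paroxetine and 14.0 and 13.01 FPKM with DMSO. Its groups overlapped and it was not called (adjusted p = 0.838).

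The cyclic AMP response element TGACGTCA, which ATF and CREB factors and some AP-1 pairs bind, lay in the promoters of DUSP1, JUND, MAFF and ZFP36L1, 4 of the 26 genes, and in 1.85% of all promoters. The windows around the elements of MAFF and ZFP36L1 lie within annotated exons of these genes and are not shown. Those of DUSP1 and JUND, which both rose, hold no exon bases of their gene and are shown with the element in capitals.
DUSP1 (chr5:172771287-172771346, - strand): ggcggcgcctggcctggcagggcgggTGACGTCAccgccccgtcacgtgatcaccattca
JUND (chr19:18281789-18281848, - strand): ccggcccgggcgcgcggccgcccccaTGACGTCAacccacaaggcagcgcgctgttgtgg
Of these 4 genes DUSP1, JUND and MAFF were called higher and ZFP36L1 was not called. Calls of higher made up 57.6% of the 33 tested genes of the group and 18.1% of all tested genes. A link between the element and the change was not tested. The AP-1 site TGACTCA was found in BCL6, where it lies within an annotated exon of that gene, and in FOSL2, and in 4.95% of all promoters. The EGR motif GCGTGGGCG (0.795% of promoters) and the NR4A motif AAAGGTCA (1.22%) were found in 0 of the 26 genes, which says only that these letters are not in their promoter windows. No pair of these motifs overlaps in the windows printed.

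All 3 NR4A genes, which encode orphan nuclear receptors induced as immediate early genes, were called higher. NR4A1, also known as NUR77 (ENSG00000123358, chromosome 12, 52022832 to 52059507), had 119 and 124 FPKM with paroxetine and 47.7 and 43.9 FPKM with DMSO, a log2 change of 1.39 ± 0.06 (SE, adjusted p = 0.000294). It was the most abundant gene of the class by far, at 93.8% to 95.4% of its FPKM in the 4 libraries. NR4A2, or NURR1, had 5.58 and 5.75 FPKM with paroxetine and 2.24 and 1.81 FPKM with DMSO, a log2 change of 1.14 ± 0.16 (SE, adjusted p = 0.00477). NR4A3, or NOR1, had 2.04 and 2.44 FPKM with paroxetine and 0.476 and 0.303 FPKM with DMSO, a log2 change of 1.22 ± 0.21 (SE, adjusted p = 0.00930). With log2(FPKM + 0.1), which shrinks low genes less, its change was 2.28. On the FPKM scale the means stood at 2.66-fold for NR4A1, 2.80-fold for NR4A2 and 5.75-fold for NR4A3, the rarest of the 3. A lincRNA on the opposite strand of NR4A1, AC025259.3, shares 10.3% of its exon bases and had 84.9 and 88.5 FPKM with paroxetine and 29.7 and 26.3 FPKM with DMSO. Whether the authors' counting used strand is not stated in the labels, and how the reads of this locus divide between both genes was not tested.

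The small MAF genes encode leucine zipper proteins that lack an activation domain and pair with NRF and BACH factors. MAFG (ENSG00000197063, chromosome 17, 81918270 to 81927714) rose most, with 54.6 and 52.5 FPKM in the paroxetine libraries and 19.4 and 19.9 FPKM in the DMSO libraries, a log2 change of 1.4 ± 0.07 (SE, adjusted p = 0.000294). MAFK had 34.3 and 31.3 FPKM with paroxetine and 19.0 and 18.4 FPKM with DMSO, a log2 change of 0.77 ± 0.08 (SE, adjusted p = 0.00182). MAFF had 28.0 and 27.5 FPKM with paroxetine and 19.4 and 18.3 FPKM with DMSO, a log2 change of 0.53 ± 0.07 (SE, adjusted p = 0.00464). The 3 genes stood at nearly equal levels with DMSO, each at 32.3% to 35.1% of the class. With paroxetine they spread apart, MAFG holding 46.7% and 47.2%, MAFK 29.3% and 28.1% and MAFF 23.9% and 24.7%. The sum of the class was 117 and 111 FPKM with paroxetine and 57.9 and 56.6 FPKM with DMSO. MAFG shares 2.01% of its exon bases with SIRT7 on the same strand and 4.29% with AC145207.8 on the opposite strand. SIRT7 had 18.4 and 24.4 FPKM with paroxetine and 11.3 and 12.2 FPKM with DMSO, and AC145207.8 at most 2.35 FPKM. Their part in the value of MAFG was not tested. Exons of TMEM184A on the opposite strand cover 18.1% of the exon bases of MAFK; TMEM184A had 4.07 and 5.04 FPKM with paroxetine and 2.55 and 2.48 FPKM with DMSO, and its part in the value of MAFK was not tested.

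**Figure D3:**
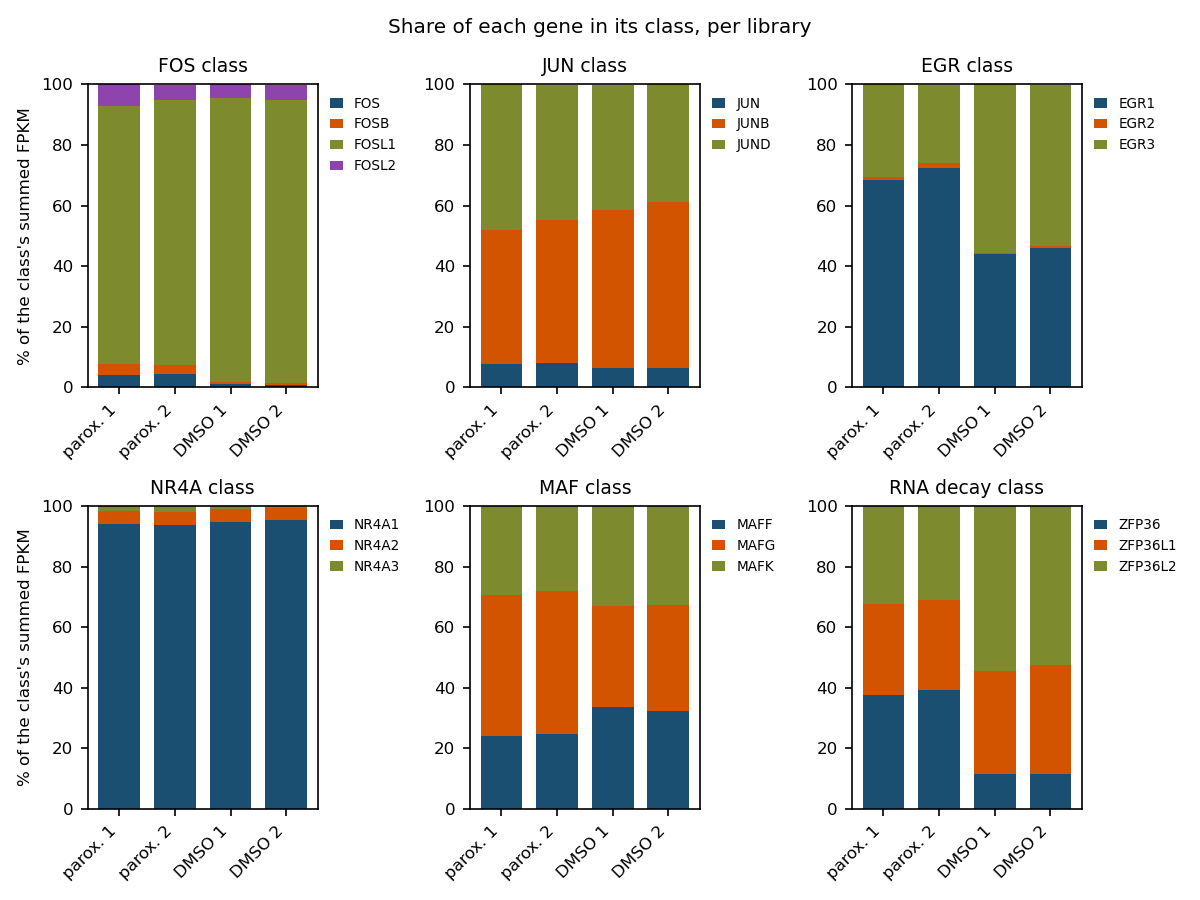
Share of each gene in the summed FPKM of its class, in percent, with a bar per library and the paroxetine libraries at the left. EGR1 and ZFP36 (37.5% and 39.4% with paroxetine, 11.4% and 11.5% with DMSO) take larger shares with paroxetine, EGR3 and ZFP36L2 smaller ones, and NR4A1 holds at least 93.8% of its class in each library.

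The RNA decay class, CCCH zinc finger proteins that recruit deadenylases to AU-rich transcripts, held a rise, a fall and a gene that was not called. ZFP36, or tristetraprolin (ENSG00000128016, chromosome 19, 39406813 to 39409412), had 35.9 and 39.4 FPKM with paroxetine and 9.86 and 9.44 FPKM with DMSO. Its log2 change was 1.86 ± 0.09 (SE, adjusted p = 0.000294), 3.90-fold on the FPKM scale. ZFP36L2 (ENSG00000152518, chromosome 2, 43222402 to 43226609) had 30.9 and 31.1 FPKM with paroxetine and 47.2 and 43.1 FPKM with DMSO, and it fell by 0.53 ± 0.07 on the log2 scale (SE, adjusted p = 0.00430). ZFP36L1 had 29.04 and 29.7 FPKM with paroxetine and 29.7 and 29.6 FPKM with DMSO, and was not called (adjusted p = 0.876). Its groups overlapped. ZFP36 was the rarest of the 3 with DMSO and the most abundant with paroxetine. It stood at 1.16 and 1.27 times ZFP36L2 with paroxetine, against 0.209 and 0.219 times with DMSO. The summed level of the class was 95.8 and 100.2 FPKM with paroxetine and 86.8 and 82.2 FPKM with DMSO.

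The binding site of ZFP36 proteins is written UAUUUAU in RNA, and TATTTAT in the transcript sequences used here. In the 3' UTR of 1 coding transcript per gene, TATTTAT was found in 24 of the 35 genes, 68.6%, and in 32.0% of the 12021 tested protein-coding genes with a 3' UTR. The shorter ATTTA was in 33 of 35 genes (94.3%) and in 68.5% of the tested genes. Median 3' UTR length was 1287 bases in the 35 genes and 1008 bases in the tested genes, and per kilobase of 3' UTR the median number of ATTTA was 2.61 in the 35 genes and 1.59 in the tested genes. A site from each of 5 genes that rose, 3 that fell and 2 that were not called is shown, with 30 bases from GENCODE release 29 on GRCh38 and TATTTAT in capitals.
FOS (chr14:75282060-75282089, + strand): tgtttttaattTATTTATtaagatggattc
JUN (chr1:58780818-58780847, - strand): ttgcttatgaaTATTTATaacagcattctt
DUSP1 (chr5:172768642-172768671, - strand): gggctggtcctTATTTATttaacttcaccc
IER3 (chr6:30743652-30743681, - strand): ctcctaattaaTATTTATatgTATTTATgt
ZFP36 (chr19:39409181-39409210, + strand): aatgggcccttTATTTATgacgactttatt
FOSL1 (chr11:65892271-65892300, - strand): agggcagctgcTATTTATtttcctaaagag
SOCS3 (chr17:78356831-78356860, - strand): aactttgcacaTATTTATATTTATattcag
ZFP36L2 (chr2:43223447-43223476, - strand): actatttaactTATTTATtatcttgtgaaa
PIM1 (chr6:37174981-37175010, + strand): tcaatgttatgTATTTATTTATTTATTTAT
IER5 (chr1:181092443-181092472, + strand): gtgtcttccttTATTTATTTATTTATttaa
The element was in 13 of the 19 genes called higher, in 3 of the 4 called lower and in 8 of the 12 that were not called or were below the filter, and the difference between these shares was not tested. PIM1 and IER5, with their runs of overlapping elements, were not called. Over all tested coding genes it was in 32.5% of those called higher and 28.0% of those called lower.

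The 35 genes are also short. Their median span in the genome was 6.001 kb, against 33.2 kb for the tested protein-coding genes, and their median number of exons was 3, against 9. The median length of the transcript used was 3138 bases in the 35 genes and 3052 bases in the tested genes. JUN, JUNB, JUND, IER5 and RHOB have 1 exon each in the transcript used.

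The IER genes, named as early response genes, held 1 call, and at the margin. IER3, a gene of cell survival, had 229 and 248 FPKM with paroxetine and 212 and 195 FPKM with DMSO, a log2 change of 0.23 ± 0.07 (SE, adjusted p = 0.0499). The call of IER3 was lost without paroxetine replicate 2 (adjusted p = 0.1596), without DMSO replicate 1 (0.0670) or without DMSO replicate 2 (0.201). In all, 7 of 12 alternatives ended it, and the adjusted p ran from 0.00455 to 0.201. The log2 change of IER3 was 0.41 with quantile normalization. IER2 had 73.7 and 74.8 FPKM with paroxetine and 91.6 and 79.7 FPKM with DMSO and was not called (adjusted p = 0.102; 0.0437 without DMSO replicate 2). IER5 had 17.9 and 19.5 FPKM with paroxetine and 18.6 and 20.7 FPKM with DMSO, and its groups overlapped. Antisense genes share exon bases with IER2 (AC011446.2, 30.8% of them) and with IER3 (IER3-AS1, 26.5%). AC011446.2 had 95.5 and 103 FPKM with paroxetine and 124 and 104 FPKM with DMSO, IER3-AS1 had 56.5 and 77.1 FPKM with paroxetine and 67.9 and 51.4 FPKM with DMSO, and their part in these values was not tested.

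DUSP1, a phosphatase that switches off p38 and JNK (ENSG00000120129, chromosome 5, 172768090 to 172771195), had 13.1 and 11.7 FPKM with paroxetine and 5.85 and 5.69 FPKM with DMSO, a log2 change of 0.98 ± 0.11 (SE, adjusted p = 0.00269). DUSP2, a nuclear phosphatase of ERK, was near the filter, with 0.863 and 1.05 FPKM with paroxetine and 1.21 and 0.908 FPKM with DMSO. Its groups overlapped.

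Among the other transcription factors MYC, the driver of growth and ribosome genes (ENSG00000136997, chromosome 8, 127735434 to 127741434), fell. It had 2.90 and 3.11 FPKM with paroxetine and 7.06 and 11.6 FPKM with DMSO. The fall of 1.33 ± 0.24 on the log2 scale (SE, adjusted p = 0.0100) has the largest error but one among the tested genes of the list, and the DMSO libraries lie far apart from each other, yet above both paroxetine libraries. BCL6, a repressor known from germinal centre B cells, had 9.32 and 10.9 FPKM with paroxetine and 6.21 and 5.12 FPKM with DMSO, a log2 change of 0.74 ± 0.15 (SE, adjusted p = 0.0139). Its call was lost without paroxetine replicate 2 (adjusted p = 0.0612) and without DMSO replicate 2 (0.0552), and over all alternatives the adjusted p ran from 0.00900 to 0.0612. CSRNP1, a nuclear protein first described as induced by AXIN1, had 12.7 and 12.97 FPKM with paroxetine and 8.22 and 7.59 FPKM with DMSO, a log2 change of 0.63 ± 0.10 (SE, adjusted p = 0.00756).

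The kinases and signalling inhibitors held 1 call. SOCS3, which blocks JAK kinases after cytokine signals (ENSG00000184557, chromosome 17, 78356778 to 78360077), had 3.83 and 4.11 FPKM with paroxetine and 6.86 and 8.33 FPKM with DMSO. It fell by 0.78 ± 0.15 on the log2 scale (SE, adjusted p = 0.0122), a call lost without DMSO replicate 2 (adjusted p = 0.0621; 0.00771 to 0.0621 over the alternatives). The kinase SGK1 had 16.1 and 17.3 FPKM with paroxetine and 13.6 and 13.6 FPKM with DMSO, and was not called (adjusted p = 0.0575). The kinase PIM1 had 10.8 and 10.9 FPKM with paroxetine and 12.6 and 14.8 FPKM with DMSO (adjusted p = 0.0829). The pseudokinase TRIB1 had 9.81 and 9.43 FPKM with paroxetine and 8.08 and 8.59 FPKM with DMSO (adjusted p = 0.223). In each of these 3 genes the groups did not overlap, yet the difference did not pass the test. SGK1 passed it with a minimum of 5 FPKM (adjusted p = 0.0488), with trimmed-mean scaling (0.0487) and after rescaling without mitochondrially encoded genes (0.0351).

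Of the effectors RHOB, a small GTPase of endosomes induced by stress (ENSG00000143878, chromosome 2, 20447074 to 20449445), rose to 39.5 and 43.1 FPKM with paroxetine, against 16.4 and 17.2 FPKM with DMSO. Its log2 change was 1.25 ± 0.08 (SE, adjusted p = 0.000544). ARC, a synaptic gene named for the cytoskeleton, had 1.21 and 1.94 FPKM with paroxetine and 0.259 and 0.2998 FPKM with DMSO (adjusted p = 0.0272). Leaving out DMSO replicate 1 (adjusted p = 0.0929) or DMSO replicate 2 (0.0849), or using no filter (0.0509), ended the call of ARC, whose adjusted p over the alternatives ran from 0.0206 to 0.0929. The log2 change of ARC was 1.00 ± 0.24 (SE), and 2.11 with log2(FPKM + 0.1). EDN1, which encodes endothelin 1, was below the filter. It was listed at 0 and at 0.118 FPKM in the paroxetine libraries while DMSO gave 0.577 and 0.734 FPKM. A fit without a filter called it lower (adjusted p = 0.0418).

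Genes around this group were counted in 6 lists. Of 38 other early-response genes tested, 16 were called higher and 12 lower. These shares, 42.1% and 31.6%, stood beside 18.1% and 20.5% of all tested genes, and the median log2 change was 0.24. ATF3, a stress-induced leucine zipper factor, had 17.9 and 15.2 FPKM with paroxetine and 3.56 and 3.73 FPKM with DMSO. PPP1R15A, which helps to reverse eIF2-alpha phosphorylation, and TNFAIP3, an inhibitor of NF-kappaB signals, followed with log2 changes of 1.87 ± 0.06 and 1.54 ± 0.16 (SE). In the other direction CCN1, a target of SRF and YAP, had 29.03 and 32.6 FPKM with paroxetine and 133 and 132 FPKM with DMSO. CCN2, its relative, fell by 1.96 ± 0.08 and PLK2, a kinase of the polo family, by 1.26 ± 0.07 on the log2 scale (SE).

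Of 16 other leucine zipper partners of AP-1 tested, 3 were called higher and 1 lower. That is 18.8% and 6.25%, against 18.1% and 20.5% of all tested genes, with a median log2 change of 0.07. The largest change was that of ATF3, which is also in the list above, with 1.91 ± 0.13 (SE). BACH1, a repressor that pairs with small MAF proteins, had 27.1 and 27.1 FPKM with paroxetine and 20.6 and 16.0 FPKM with DMSO. ATF2 had 18.0 and 17.1 FPKM with paroxetine and 12.6 and 14.2 FPKM with DMSO, and ATF1 fell by 0.34 ± 0.10 on the log2 scale (SE, adjusted p = 0.0431). The number called higher fell without either paroxetine replicate, and the number called lower fell without either DMSO replicate. Each of these fits left 1 library in a group, and fewer of all tested genes were called in them.

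Of 11 cofactors of SRF, EGR and CREB factors 2 were called higher and 1 lower. That is 18.2% and 9.09%, against 18.1% and 20.5% of all tested genes, with a median log2 change of 0.21. ELK3, an ETS cofactor of SRF, had 31.6 and 31.9 FPKM with paroxetine and 55.6 and 53.7 FPKM with DMSO (adjusted p = 0.000929). ELK4, another such cofactor, had 26.1 and 25.0 FPKM with paroxetine and 19.0 and 19.8 FPKM with DMSO. CRTC2, a coactivator of CREB, had 46.7 and 48.0 FPKM with paroxetine and 34.9 and 28.6 FPKM with DMSO. The number called higher fell without paroxetine replicate 1 and without DMSO replicate 1. Each of these fits left 1 library in a group, and fewer of all tested genes were called higher in them.

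Of 23 MAP kinases and kinases next to them 4 were called higher and 1 lower. That is 17.4% and 4.35%, against 18.1% and 20.5% of all tested genes. The median log2 change was -0.06, and 1 of the 23 passed the filter only through the paroxetine libraries. MAPK7, or ERK5, had 12.2 and 9.87 FPKM with paroxetine and 5.80 and 6.14 FPKM with DMSO, and MAP2K5, the kinase that activates it, had 19.9 and 20.1 FPKM with paroxetine and 12.8 and 12.4 FPKM with DMSO. RPS6KA2 and RPS6KA3, kinases downstream of ERK, differed in sign, with log2 changes of 0.71 ± 0.15 and -0.41 ± 0.08 (SE). The number called lower rose without paroxetine replicate 1 and fell without paroxetine replicate 2. Each of these fits left 1 paroxetine library, and fewer of all tested genes were called lower in them.

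Targets known to respond to AP-1 did not share a direction, with 3 of 13 higher and 5 lower. That is 23.1% and 38.5%, against 18.1% and 20.5% of all tested genes. The median log2 change was 0.07, and 1 of the 13 passed the filter only through the paroxetine libraries. MMP9, a matrix protease, had 0.412 and 0.426 FPKM with paroxetine and 7.78 and 8.51 FPKM with DMSO. It is among the 5 called lower and passed the filter only through the DMSO libraries, where it was high. FN1, fibronectin, had 103 and 103 FPKM with paroxetine and 306 and 324 FPKM with DMSO. The 3 that rose were IL11, VEGFA and CD44, with log2 changes of 0.27 to 0.49. The number called higher fell without paroxetine replicate 1 and without either DMSO replicate. Each of these fits left 1 library in a group, and fewer of all tested genes were called higher in them.

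Of 17 genes of the decay of AU-rich RNA 3 were called higher and 3 lower. That is 17.6% each, against 18.1% and 20.5% of all tested genes, with a median log2 change of -0.07. TOB1, an adaptor of the deadenylase complex, had 23.1 and 19.9 FPKM with paroxetine and 11.6 and 10.99 FPKM with DMSO, and DCP1A and TOB2 also rose, by 0.60 ± 0.08 and 0.27 ± 0.07 on the log2 scale (SE). The genes that fell encode proteins that bind AU-rich RNA. HNRNPD, or AUF1, had 128 and 140.4 FPKM with paroxetine and 213 and 213 FPKM with DMSO. KHSRP had 118 and 116 FPKM with paroxetine and 181 and 184 FPKM with DMSO, and ELAVL1, or HuR, which stabilises such transcripts, had 37.7 and 35.2 FPKM with paroxetine and 54.2 and 53.6 FPKM with DMSO.

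**Figure D4:**
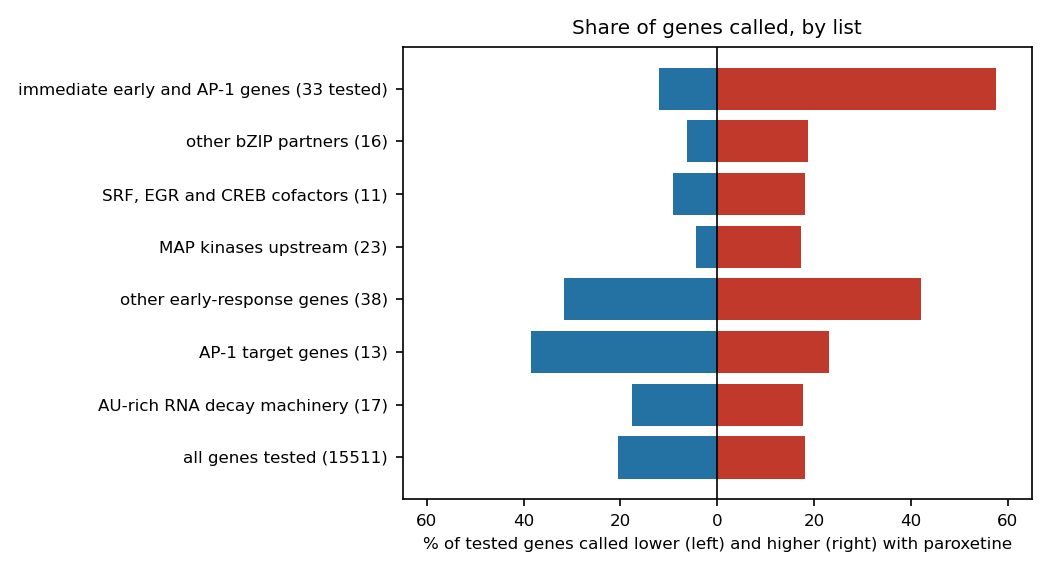
Percent of the tested genes of each list called lower (left) and higher (right) with paroxetine, with the number tested in brackets. The immediate early and AP-1 genes reach 57.6% higher and 12.1% lower, the other early-response genes 42.1% and 31.6%, and all genes tested 18.1% and 20.5%. The 57.6% includes NR4A3 and ARC, which passed the filter only through paroxetine, and is 54.8% without them.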

How the data were processed

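The authors deposited 1 table of FPKM values per gene and library. Per the submitters' processing notes, CASAVA 1.4, HISAT2 2.1.0, Cufflinks 2.2.1 and the build hg38 were used; the labels state neither options nor annotation, nor whether counting used strand or how reads matching several genes were shared. The 4 FPKM columns were matched to the labels by name, and 12 further per-sample columns were not used. The 15511 genes that reached 1 FPKM in at least 2 of 4 libraries were fitted with limma 3.58.1 (R 4.3.3) on log2(FPKM + 1), with the mean-variance trend, two-sided, adjusted by Benjamini-Hochberg over all tested genes. The fit had 2 residual and 3.32 prior degrees of freedom. A fold change on this scale understates that of low genes. The pipeline was tested on simulated data. The members and lists were chosen with earlier results of these data known, so their counts are not independent evidence.

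All 35 members were reported; of related lists, up to 3 called genes with the largest change in each direction were named, except 1 gene that is not reported here. Replicate numbers were not taken as pairs. Gene positions, exons and 3' UTRs came from GENCODE release 29 (the basic transcript with the longest coding part), promoters from RefSeq on GRCh38.p14 (26 of 35 members matched). Alternatives are given in the closing section. Computation also used Python 3.11.15, pandas 2.3.3 and matplotlib 3.10.9.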

Additional observations from a re-analysis of the deposited data

How the results depend on the processing

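Of the 23 called genes of the group, 19 kept direction and call under each of the alternatives they could be fitted in, and 0 changed direction; IER3, BCL6, SOCS3 and ARC lost a call, while EGR3, SGK1 and IER2 gained one under some. Leaving out a replicate left 1 library in that group, and fewer of all tested genes were then called in either direction than in the main fit. With a minimum change of 2-fold, 9 were called higher, NR4A3 among them, and 1 lower (3.69% and 4.41% of all tested genes). At that minimum the leucine zipper partners counted 1 higher and 0 lower, the SRF, EGR and CREB cofactors 0 and 0, the MAP kinases 0 and 0, the other early-response genes 6 and 7, the AP-1 targets 0 and 4, and the AU-rich decay genes 0 and 0. The leucine zipper partners counted 1 higher with no filter and without the mean-variance trend (1 to 3 without a replicate), and 0 lower with no filter, quantile normalization and rescaling without mitochondrially encoded genes (0 to 1 without a replicate). The cofactors counted 4 higher with quantile normalization and with that rescaling (1 to 2 without a replicate). The MAP kinases counted 2 lower with a minimum of 5 FPKM (0 to 3 without a replicate), and the AP-1 targets 1 higher with no filter and without the trend (0 to 3 without a replicate). Counts over all tested genes also differed between these settings. In the main fit 2811 of 15511 were called higher and 3184 lower. Quantile normalization gave 2988 higher and 2911 lower of 15511, and that rescaling 3130 and 2817 of 15518. Without the trend 2494 of 15511 were called higher and 2762 lower. No filter gave 2003 higher and 2392 lower of 27287, and a minimum of 5 FPKM 3049 lower of 10891. Log2 changes near 0 changed sign: ZFP36L1 was 2.52e-05 with trimmed-mean scaling, 0.046 with quantile normalization and 0.034 after that rescaling. Without a replicate ZFP36L1 ran from -0.0307 to 0.000476, IER5 from -0.14 to 0.00327, DUSP2 from -0.17 to 0.00153 and SRF from -0.11 to 0.19. The cause was not tested.

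Deviations of the replicate 1 libraries from their group means were hardly correlated across genes (r = -0.0425). That value cannot show whether samples of the same number were handled as pairs, and the labels do not say. With the replicate number as a block the group counted 18 higher and 4 lower, where 2492 of all 15511 tested genes were called higher and 2883 lower. In that fit IER3 was not called (adjusted p = 0.0813) and the leucine zipper partners counted 0 lower. With 2 libraries a group and no read numbers in the table, no counting error could be given for low genes such as EGR2, EDN1 and ARC.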
